A study of Schizosaccharomyces pombe with 12 samples.

Results

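The glutamine mutant of histone H2B was compared with the wild type of the fission yeast Schizosaccharomyces pombe. In the mutant the lysines at positions 5, 10 and 15 of H2B are exchanged together for glutamine (K5Q, K10Q and K15Q, with positions counted without the first methionine). The comparison takes the libraries that the sample titles call Q and WT, 3 of each, which are 6 of the 12 libraries of the series. The other libraries come from strains with alanine (A) or arginine (R) in the same places, 3 of each. The label of A replicate 2 gives 16 as its last position. The labels give the H2B genotype of each strain and name whole cells as the material. They give no medium, growth phase, mating type or further allele for any group, and nothing in them says that replicates were separate cultures. The p-values therefore rest on the spread among libraries alone, which may be technical. Whether the strains differ elsewhere was not tested.

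H2B pairs with H2A, and together with H3 and H4 they form the particle around which DNA is wound. Lysines in the tail of H2B can be acetylated, which takes away their positive charge, and glutamine, an uncharged residue, is widely used to stand in for an acetylated lysine. The series title ties acetylation at these positions to repair of broken DNA. The comparison asks which transcripts differ from the wild type when glutamine is in their place. The gene htb1 is the H2B gene of this yeast, and the start of its reading frame in RefSeq (assembly ASM294v3, chromosome III, plus strand, unmutated) is shown because it holds the 3 lysine codons exchanged in the mutant, in capitals:
htb1: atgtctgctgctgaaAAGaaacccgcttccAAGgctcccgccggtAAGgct

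The total gene count per library ranged from 15329416 (Q replicate 1) to 20050394 (WT replicate 1). Levels are given as CPM, counts scaled to a common library total with TMM factors, and are not corrected for gene length. The floor, taken as 3 counts, was 0.147 to 0.193 CPM, and it covers counting error only. The WT libraries lay closer together than the Q libraries: the median SD of log2 CPM over the 5024 tested genes was 0.0895 in WT and 0.22 in Q. The SD was larger in Q for 84.2% of genes. The first principal component of the 6 libraries (66.8% of the variance) set the WT libraries at -25, -20.1 and -24 and Q replicates 1, 2 and 3 at 15.2, 35.5 and 18.5. Q replicate 2 therefore lay farthest from WT. Of the 230 genes called at least 2-fold higher, 161 had their highest level in Q replicate 2, and of the 179 called at least 2-fold lower 120 had their lowest level there. The gene ura4, a common marker gene of laboratory strains, had at most 1 count in each of the 12 libraries. Genes of both mating types were detected in every WT and Q library. The summed level of 40 genes of middle meiosis and spore formation was 1746 to 1787 CPM in WT and 1762 to 1912 CPM in Q, overlapping ranges.

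A gene was called at an adjusted p below 0.05 (edgeR quasi-likelihood test, Benjamini-Hochberg adjustment over all tested genes). In brackets below, the signed number is the log2 fold change of Q over WT, followed by its standard error (SE), and means are given ± SD of 3 libraries. Of 5024 genes, 1731 were called (34.5%), 936 higher in Q (18.6%) and 795 lower (15.8%). At least 2-fold differences were called for 409 genes (8.14%), 230 higher (4.58%) and 179 lower (3.56%). The count depended on the libraries: it was 968, 1083 and 841 without WT replicates 1, 2 and 3, and 1681, 1067 and 1599 without Q replicates 1, 2 and 3. Of the 1731 genes, 733 were called in the same direction in all 6 of these fits, 424 higher and 309 lower. In the authors' deposited table of this comparison 428 genes had an FDR below 0.05 and at least a 2-fold change, a cut chosen here. Of these, 401 (93.7%) were called here in the same direction, with no fold minimum. Both come from the same libraries.

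The mutated gene itself was lower in Q. The gene htb1 (SPCC622.09) stood at 3007, 3287 and 3350 CPM in WT replicates 1, 2 and 3 and at 1134, 1193 and 1281 CPM in the Q libraries. The groups were far apart and both were tight. Its mean fell from 3215 ± 182 to 1202 ± 74 CPM (SD, n = 3), or by 1.42 on the log2 scale (-1.42, SE 0.27, adjusted p = 0.00528). The labels do not say how the mutant allele was made or where it lies, so the level of htb1 is no check of them. In the annotation htb1 overlaps sec5, and the handling of strand is not given in the sources used here, so reads from the overlap cannot be assigned. The same holds for these genes named below, which overlap a neighbour: atg8, byr2, chk1, clr4, exo84, gal10, gcn5, hht3, hsf1, hul5, ire1, mam1, mam3, map3, pun1, pyp2, rad4, rad52, rap1, ras1, rdl1, rik1, rpn8, sec6, sec8, sec15, SPAC11D3.06, spk1, srx1, ssa2, ssb2, ssc1, ste6, sxa2 and trx1.

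Genes on either side of htb1 were lower too. The gene hta1 (SPCC622.08c), which encodes an H2A, was at 423, 410.4 and 429 CPM in WT and at 216, 248 and 233 CPM in Q, without overlap (-0.86, SE 0.17, adjusted p = 0.00528). The gene sec5 (SPCC622.10c) encodes a subunit of the exocyst, the complex that tethers secretory vesicles to the plasma membrane. Its levels were 455, 383 and 458 CPM in WT and 115, 165 and 117 CPM in Q (-1.71, SE 0.21, adjusted p = 0.00197). The level of sec5 was also low in A (137 ± 27.4 CPM) and R (146 ± 35.1 CPM). Q was not called against either (adjusted p = 0.92 and 0.732), so this fall was not particular to Q. No other of the 11 exocyst genes tested was called lower. The gene sec8 rose from 101 ± 1.17 to 175 ± 4.33 CPM (0.79, SE 0.17, adjusted p = 0.00729) and exo84 from 35.1 ± 3.89 to 59.7 ± 3.83 CPM (0.77, SE 0.17, adjusted p = 0.00757). By contrast, sec6 was at 124 ± 8.66 CPM in WT and 124 ± 9.88 in Q (adjusted p = 0.985) and sec15 at 153 ± 2.12 and 152 ± 11.5 CPM (adjusted p = 0.909).

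Of 11 core histone genes, 4 were called lower (36.4%, against 15.8% of all genes) and 1 higher (9.09%, against 18.6%), and the median log2 fold change was -0.17, against 0.02 over all tested genes. The gene hht1, an H3 gene, fell from 649 ± 34.4 to 419 ± 45.4 CPM (-0.63, SE 0.14, adjusted p = 0.00767). The other H3 genes and the 3 H4 genes showed smaller differences: hht2 was at 764 ± 77.1 and 852 ± 168 CPM (adjusted p = 0.427). For the H4 genes, hhf1 stood at 138 ± 18.8 and 147 ± 34.6 CPM (adjusted p = 0.73) and hhf2 at 376 ± 45.1 and 452 ± 63.5 CPM (adjusted p = 0.141). The second H2A gene, hta2, was at 949.6 ± 152 CPM in WT and 846 ± 18.3 in Q (adjusted p = 0.324), with libraries that overlapped. The gene hht3 was called lower (-0.38, adjusted p = 0.0456). This call was lost without any 1 of WT replicates 1, 2 and 3 (0.0764, 0.101 and 0.135) and Q replicates 1, 2 and 3 (0.0677, 0.101 and 0.0797). The gene pht1, the gene of the variant H2A.Z, was called higher (188 ± 13.9 to 254 ± 54.2 CPM, adjusted p = 0.0401). That call was lost without WT replicates 1, 2 and 3 (0.134, 0.0721 and 0.0988) or Q replicate 2 (0.171). None of the 11 genes has a copy elsewhere at 95% identity over 50% of its length.

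**Figure D1:**
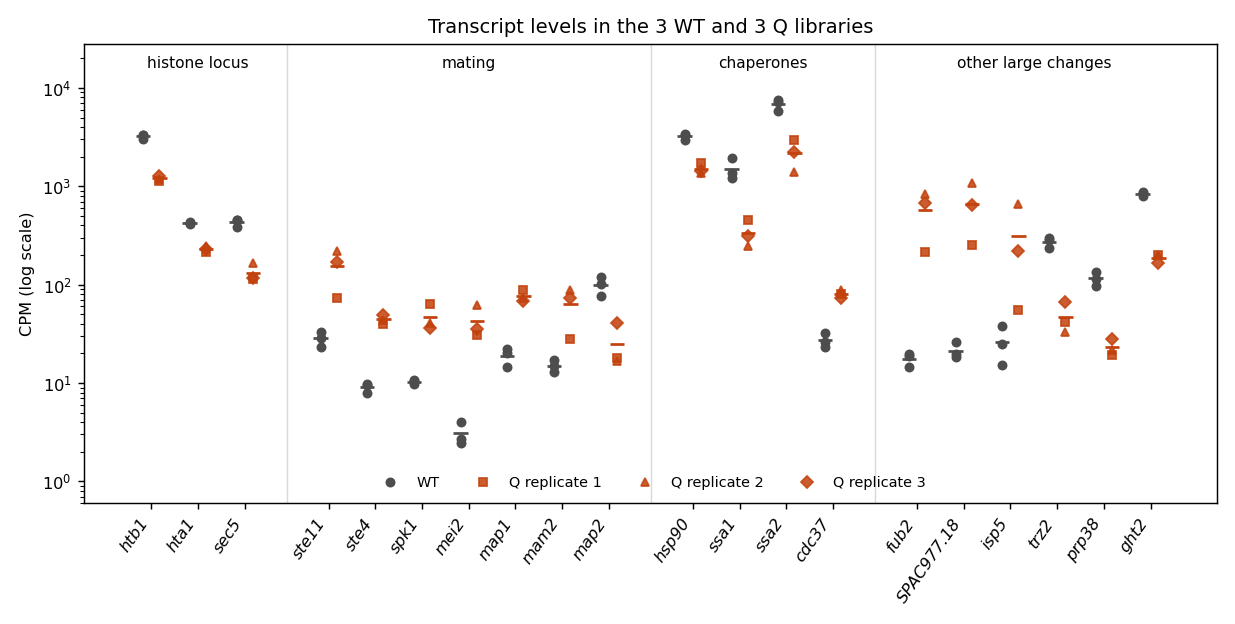
CPM on a log axis in each of the 3 WT libraries (dots) and Q replicates 1, 2 and 3 (square, triangle, diamond) for 20 genes in 4 groups, with a line at each group mean. The Q libraries of htb1 sit between 1134 and 1281 CPM, all below WT, while isp5 spreads from 55.2 to 654 CPM over the Q libraries.

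Genes that drive mating were among those with the lowest p. Fission yeast cells mate when nutrients run low: Ste11 switches on the mating genes, pheromones of the opposite type act through a receptor, a G protein and a MAP kinase cascade, and Mei2 then starts meiosis. The gene ste11 (SPBC32C12.02) was at 23.2, 33 and 29 CPM in WT and at 73.4, 219 and 171 CPM in Q (2.44, SE 0.34, adjusted p = 0.00222). All Q libraries were above all WT libraries, and Q replicate 1 was the lowest of them. The gene mei2 (SPAC27D7.03c) was at 2.46, 2.7 and 4.05 CPM in WT and 31.1, 62.6 and 35.6 CPM in Q (3.82, SE 0.47, adjusted p = 0.00197). The gene ste4 (SPAC1565.04c), an adaptor of the MAP kinase cascade, had the lowest p of all genes called higher: it was at 7.91, 9.6 and 9.76 CPM in WT and at 39.4, 44.2 and 49.2 CPM in Q (2.28, SE 0.18, adjusted p = 9.25e-05). Both groups of ste4 were narrow, and its coordinates overlap those of SPAC1565.03.

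Some genes of the signalling chain rose and others were not called. The gene gpa1, the G protein alpha subunit, rose from 97 ± 10.7 to 248 ± 36.9 CPM (1.35, SE 0.17, adjusted p = 0.00197). The GTPase gene ras1, whose product acts beside it, rose from 28.4 ± 2.68 to 69.7 ± 8.3 CPM (1.29, SE 0.17, adjusted p = 0.0021). The gene spk1, the MAP kinase at the end of the cascade, was at 10.5, 9.84 and 10.7 CPM in WT and at 63, 40.6 and 36.2 CPM in Q (2.17, SE 0.44, adjusted p = 0.00584). The gene byr2, the first kinase of the cascade, was at 174 ± 22.9 CPM in WT and 141 ± 20.2 in Q (adjusted p = 0.123), and byr1, the kinase between them, was not called either (0.17, adjusted p = 0.269). The gene ste6, an exchange factor for Ras1, was uneven in Q at 9.22, 31.8 and 46 CPM against 10.5, 8.28 and 6.29 in WT (1.79, adjusted p = 0.0202). Its call was lost without WT replicates 2 and 3 (0.0603 and 0.0761) or Q replicates 2 and 3 (0.054 and 0.0769). Of 31 genes of pheromone signalling and early sexual differentiation 10 were called higher (32.3%, against 18.6% of all genes) and 3 lower (9.68%, against 15.8%), with a median log2 fold change of 0.01. The lower ones include gnr1, whose product dampens the pathway (19.9 ± 2.28 to 8.02 ± 1.47 CPM, -1.31, adjusted p = 0.011), and scd2, a scaffold of Cdc42 (613 ± 54.7 to 294 ± 67.8 CPM, -1.06, adjusted p = 0.0267). The scd2 call was lost without WT replicates 1 and 3 (0.0764 and 0.0665) or Q replicates 1 and 2 (0.078 and 0.0557). The higher count was 9, 7, 7, 11, 7 and 9, and the lower count 1, 2, 1, 1, 2 and 6, without WT replicates 1, 2, 3 and Q replicates 1, 2, 3 in turn.

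Upstream of several of these genes lie letters that match the site bound by Ste11. TTCTTTGTT was searched on both strands in the 250 bases before each gene start of the RefSeq annotation (ASM294v3), and 1.57% of 4984 genes hold it, against 9 of the 31 listed mating genes. Of these 9, 6 were called higher (ste4, mei2, ste11, spk1, ste7 and ste6) and 2 lower (gnr1 and rep1). Of the 22 without it, 4 were called higher (gpa1, ras1, scd1 and pac2) and 1 lower (scd2). Over all genes, 2.26% of those called higher and 2.29% of those called lower hold it. A match is a description of the letters and not of binding. The stretches around the matches in 4 genes that rose are shown on the gene's strand, with the matching letters in capitals (in spk1 also on the other strand), on chromosome I for mei2, ste4 and spk1 and chromosome II for ste11:
mei2: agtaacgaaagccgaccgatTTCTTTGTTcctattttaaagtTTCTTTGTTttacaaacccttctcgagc
ste11: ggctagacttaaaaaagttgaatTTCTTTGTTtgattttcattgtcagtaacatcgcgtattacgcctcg
ste4: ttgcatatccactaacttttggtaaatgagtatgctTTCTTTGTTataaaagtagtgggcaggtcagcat
spk1: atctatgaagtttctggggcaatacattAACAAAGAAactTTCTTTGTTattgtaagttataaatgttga

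Genes that belong to a mating type moved both ways. Among genes known from M cells, mfm2, an M-factor gene, was at 29.9, 49.8 and 43.9 CPM in WT and at 138, 151 and 188 CPM in Q (1.95, SE 0.26, adjusted p = 0.00216). The gene mam2, the P-factor receptor, was at 17, 14.8 and 12.8 CPM in WT and at 28.2, 87.3 and 73.2 CPM in Q (2.08, SE 0.34, adjusted p = 0.00356). Levels of mam1, the M-factor transporter, rose from 37.9 ± 0.429 to 68.3 ± 5.93 CPM (0.85, SE 0.15, adjusted p = 0.00452). All 3 stood higher in every Q library. The gene mat1-Mc, the M regulator, rose from 42 ± 8.93 to 91.6 ± 20.8 CPM (1.13, adjusted p = 0.0107), but it has a near-identical silent copy, mat3-Mc, which was at 0 in all 6 libraries, so its counts could hold reads from either. The protease gene sxa2 was lower (-0.49, adjusted p = 0.0127), a call lost without WT replicate 3 (0.0516). The other M-factor genes were low, with mfm1 at 1.31 ± 0.247 and 1.55 ± 1.16 CPM and mfm3 at 0.9 ± 0.367 and 0.854 ± 0.422 CPM.

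Among genes known from P cells the regulator gene map1 was at 14.7, 22 and 20.3 CPM in WT and 88.6, 72.5 and 68.8 CPM in Q (2.01, SE 0.26, adjusted p = 0.00203). The gene map2, the gene of the P-factor itself, went the other way, from 121, 76.2 and 102 CPM in WT to 17.8, 16.7 and 41 CPM in Q (-1.98, SE 0.49, adjusted p = 0.012). The M-factor receptor gene map3 was also lower, at 52.5 ± 4.79 CPM in WT and 21.5 ± 3.99 in Q (-1.29, adjusted p = 0.0215). Here the call was lost without WT replicates 1 and 3 (0.062 and 0.0626) or Q replicates 1 and 2 (0.0542 and 0.0709). The protease gene sxa1 rose from 1029 ± 14.8 to 1614 ± 371 CPM (0.65, SE 0.16, adjusted p = 0.011). The adhesin gene map4 was not called (114 ± 12.9 and 108 ± 37.6 CPM, adjusted p = 0.801), nor was mam3, the adhesin gene of M cells (152 ± 17 and 141 ± 8.98 CPM, adjusted p = 0.451). The labels do not give the mating type of the strains, and whether it differs between WT and Q was not tested.

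Several abundant chaperone genes were lower. Chaperones fold new or damaged proteins, and in yeast many are switched on by the heat-shock factor Hsf1. The gene ssa2 (SPCC1739.13), an Hsp70 gene and one of the 6 most abundant genes called, was at 7580, 5899 and 7187 CPM in WT and at 2925, 1390 and 2218 CPM in Q (-1.66, SE 0.31, adjusted p = 0.00472). The gene ssa1 (SPAC13G7.02c), another cytosolic Hsp70 gene, was at 1937, 1209 and 1356 CPM in WT and 456, 249.6 and 309.6 CPM in Q (-2.15, SE 0.53, adjusted p = 0.0115). For hsp90 (SPAC926.04c) the levels were 3371, 2968 and 3301 CPM in WT and 1725, 1360 and 1418 CPM in Q (-1.1, SE 0.18, adjusted p = 0.00372). In each of the 3 genes the groups did not overlap and Q replicate 2 was the lowest library. The gene ssc1, the mitochondrial Hsp70 gene, fell from 2043 ± 68.5 to 1178 ± 216 CPM (-0.79, SE 0.17, adjusted p = 0.00757).

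The exception among the 4 chaperone genes with the lowest p was cdc37, which encodes the co-chaperone that brings kinases to Hsp90. It was at 31.9, 26 and 23.4 CPM in WT and at 81, 87.6 and 73.8 CPM in Q (1.57, SE 0.21, adjusted p = 0.0021), with overlapping coordinates of SPBC9B6.11c. In total 12 of 29 chaperone genes were called lower (41.4%, against 15.8% of all genes) and 3 higher (10.3%, against 18.6%), with a median of -0.34. The number lower was 7, 9, 6, 14, 7 and 7, and the number higher 2, 2, 1, 2, 1 and 3, without WT replicates 1, 2, 3 and Q replicates 1, 2, 3 in turn. The gene hsp104, the disaggregase gene, fell from 862 ± 181 to 425 ± 70.3 CPM (-1.02, adjusted p = 0.0313). It was not called without WT replicates 1 and 3 (0.111 and 0.0691) or Q replicates 1, 2 and 3 (0.0801, 0.0514 and 0.073). The gene of Hsf1 was at 556 ± 17.4 CPM in WT and 448 ± 34.1 CPM in Q (-0.31, adjusted p = 0.0503). Of the 8 genes of the CCT chaperonin, which folds actin and tubulin, none was called lower and 2 were called higher (25%, against 18.6% of all genes). These were cct8 (256 ± 15.4 to 369 ± 18.4 CPM, adjusted p = 0.0125, lost without WT replicate 3 at 0.0573) and cct7 (271 ± 6.86 to 369 ± 61.5 CPM, adjusted p = 0.0249, lost without WT replicates 1, 2 and 3 and Q replicate 1 at 0.0747, 0.0643, 0.0797 and 0.0813).

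The heat-shock element letters GAANNTTC, searched on both strands in the 250 bases before the gene start, occur at 12 of the 29 chaperone genes and at 9.43% of all promoters. Of these 12 genes 8 were called lower and none higher (hsp90, ssa2, ssc1, psi1, ssa1, pss1, aha1 and hsp10). Of the 17 without the letters, 4 were called lower and 3 higher. Over all genes the letters were held by 10% of the 787 promoters of genes called lower and 10.5% of the 928 of genes called higher.

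Another run of letters stood beside them. The promoters of hsp90, ssa1 and ssa2 each hold 2 copies of AGGGTT in a row 72 to 75 bases before the gene start, with GAANNTTC a few bases after it, and htb1 holds the first of these at 59 bases. This run was picked after these promoters were read, so its counts are a description. It lies within 250 bases of 20 of 4984 genes (0.401%), of which 9 are core histone genes. Of the 20, 8 were called lower (ssa1, ssa2, htb1, hsp90, hta1, hht1, bdf2 and hht3), against 15.8% of all genes. Of these 8, hsp90, ssa1, ssa2 and htb1 are among the promoters that were read, so their part of the count was fixed beforehand. The hht3 call was lost in every fit without a library. Of the 20, 1 was called higher (tbp1) and 11 were not called, among them hhf1, hht2, hhf2 and hta2. The gene bdf2, a bromodomain protein gene, was at 559, 507 and 521 CPM in WT and 331, 358 and 339 CPM in Q (-0.63, adjusted p = 0.0147), and the call was lost without WT replicate 1 (0.0524). The gene tbp1, the TATA-binding protein gene, rose from 182 ± 7.8 to 254 ± 42.2 CPM (0.48, adjusted p = 0.0306). It was lost without WT replicates 1, 2 and 3 (0.0995, 0.0704 and 0.0819) or Q replicates 2 and 3 (0.121 and 0.054). The 4 promoters are shown from 110 to 10 bases before the gene start on the gene's strand (ASM294v3; hsp90 and ssa1 on chromosome I, ssa2 and htb1 on III), with both runs of letters in capitals:
hsp90: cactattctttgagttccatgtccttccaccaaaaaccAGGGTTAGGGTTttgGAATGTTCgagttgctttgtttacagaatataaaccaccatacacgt
ssa1: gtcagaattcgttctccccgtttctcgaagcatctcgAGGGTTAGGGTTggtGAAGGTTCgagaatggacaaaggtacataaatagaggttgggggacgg
ssa2: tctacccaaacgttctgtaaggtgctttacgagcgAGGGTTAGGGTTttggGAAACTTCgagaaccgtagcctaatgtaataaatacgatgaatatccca
htb1: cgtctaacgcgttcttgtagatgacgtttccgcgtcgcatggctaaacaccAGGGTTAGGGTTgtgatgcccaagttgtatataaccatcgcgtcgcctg

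**Figure D2:**
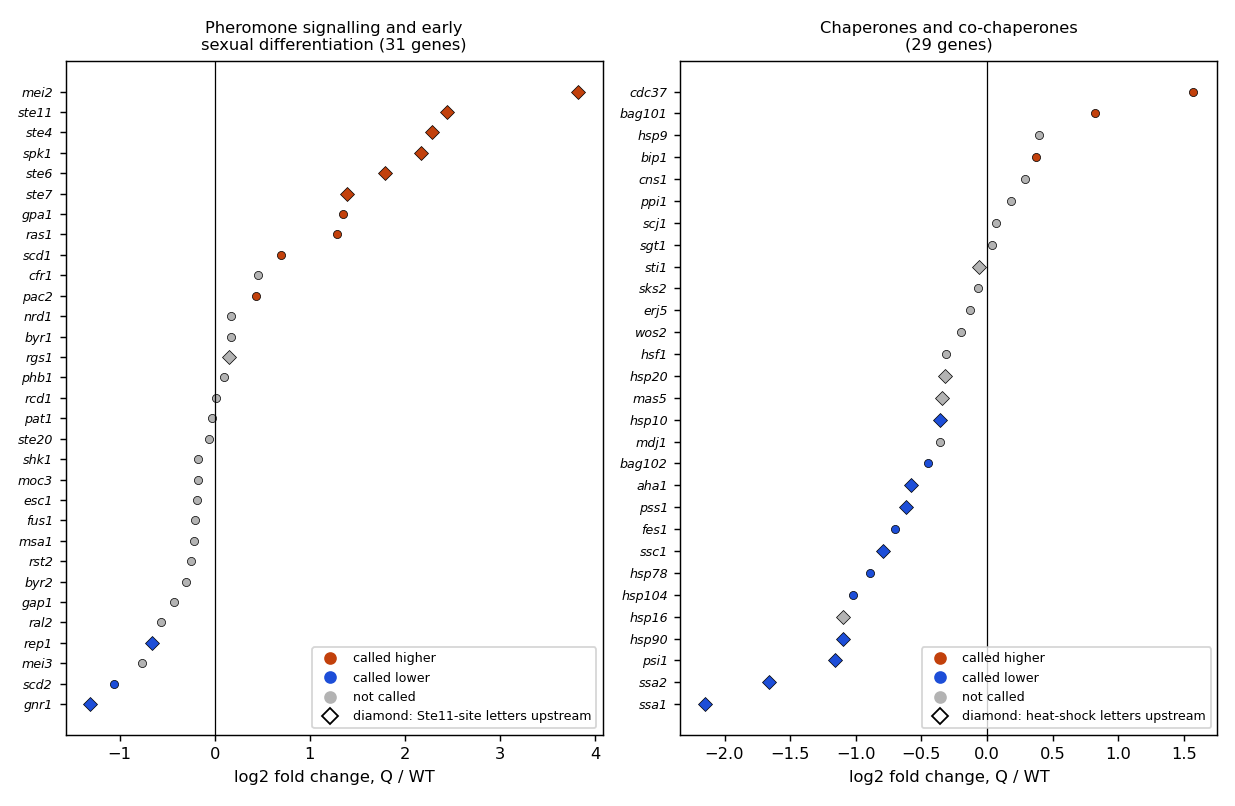
Log2 fold change of Q against WT for the 31 genes of pheromone signalling and early sexual differentiation (left) and the 29 chaperone genes (right), coloured by call, with a diamond where the gene's 250 upstream bases hold TTCTTTGTT (left) or GAANNTTC (right). On the left 6 diamonds lie among the 10 genes called higher and 2 among the 3 called lower. On the right 8 of the 12 genes called lower are diamonds and none of those called higher is.

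Many proteasome genes rose. The proteasome degrades proteins tagged with ubiquitin. The gene rpn2, a subunit of its regulatory cap, was at 285, 272 and 261 CPM in WT and at 708, 917 and 597 CPM in Q (1.44, SE 0.25, adjusted p = 0.00444). Smaller rises were called for rpt4 (238 ± 7.85 to 379.9 ± 26.9 CPM, 0.67) and rpn8 (227 ± 6.99 to 379.5 ± 36.4 CPM, 0.74), also cap subunits, and for pam1, a core subunit (89.5 ± 6.47 to 149.6 ± 15.1 CPM, 0.74). Of 35 proteasome genes 16 were called higher (45.7%, against 18.6% of all genes) and none lower, with a median of 0.34. Of the 35, 28 had all Q libraries above all WT libraries (against 27.1% of all genes). The number called higher was 10, 11, 11, 12, 13 and 15 without WT replicates 1, 2, 3 and Q replicates 1, 2, 3 in turn. Among 48 genes of ubiquitin and Cdc48, 11 were higher (22.9%, against 18.6%) and 4 lower (8.33%, against 15.8%). The higher ones numbered 7, 5, 5, 11, 7 and 7, and the lower ones 3, 3, 2, 4, 2 and 6, in the same 6 fits. The gene rhp6, the ubiquitin-conjugating enzyme that in yeasts modifies H2B, rose from 56.8 ± 5.99 to 155 ± 48.5 CPM (1.45, SE 0.25, adjusted p = 0.00417), with 51.3, 63.2 and 55.8 CPM in WT and 141, 209 and 115 CPM in Q.

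Among genes with at least 20 CPM in the higher group, the largest rises were those of fub2 and SPAC977.18, with mei2 and ste11 of the mating genes lower in that ranking. The gene fub2 (SPBP4G3.03), annotated as a PI31-type proteasome regulator, was at 19.8, 19 and 14.4 CPM in WT and 216, 841 and 669.7 CPM in Q (5.01, SE 0.75, adjusted p = 0.00297). The gene SPAC977.18, which has a near-identical copy elsewhere, was at 19.5, 26.4 and 18.3 CPM in WT and 255, 1086 and 644 CPM in Q (4.95, SE 0.71, adjusted p = 0.00269). The gene isp5, an amino acid permease gene, went from 15.3, 24.8 and 37.9 CPM in WT to 55.2, 654 and 221 CPM in Q (3.58, SE 0.68, adjusted p = 0.0051). In fub2, SPAC977.18 and isp5 Q replicate 2 was highest and Q replicate 1 lowest. The genes pun1 and mde6 are neighbours: pun1, a predicted SUR7-family membrane protein gene, was at 138, 172 and 132 CPM in WT and 274, 1410 and 947 CPM in Q (2.57, SE 0.46, adjusted p = 0.00452). Its neighbour mde6 was at 74.9, 82.7 and 73.6 against 192, 579 and 575 CPM (2.54, SE 0.37, adjusted p = 0.00279). The gene mfs3, a transporter gene of the major facilitator superfamily, was at 94.6, 165 and 183 CPM in WT and at 519.6, 866 and 551 CPM in Q (2.13, SE 0.26, adjusted p = 0.00197).

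The largest falls reached several unrelated functions. The gene trz2, a mitochondrial tRNA-processing endonuclease gene, was at 298, 238 and 284 CPM in WT and at 42.1, 33.3 and 66.4 CPM in Q (-2.53, SE 0.46, adjusted p = 0.00472). The gene prp38, a splicing factor gene, was at 135, 97.6 and 114 CPM in WT and 19.4, 21.9 and 28.1 CPM in Q (-2.32, SE 0.49, adjusted p = 0.00634). The gene pyp2, the phosphatase that turns off the stress MAP kinase Sty1, was at 1398, 1022 and 1193 CPM in WT and at 260.1, 221 and 269.7 CPM in Q (-2.27, SE 0.51, adjusted p = 0.0079). No Q library of these genes came near its WT libraries. The gene ght2, a hexose transporter gene, was at 852, 789 and 867 CPM in WT and at 198, 200.1 and 167 CPM in Q (-2.15, SE 0.41, adjusted p = 0.00515), with little spread in either group. The gene pdi4, a predicted protein disulfide isomerase gene, fell from 369 ± 31.5 to 74 ± 44.9 CPM (-2.32) and rng9, a regulator of myosin V in the contractile ring, from 70.5 ± 5.62 to 15.6 ± 8.61 CPM (-2.18). For SPAC11D3.06, a predicted transporter gene, the levels went from 52.8, 38.4 and 51.4 CPM to 3.49, 0.915 and 7.37 CPM (-3.59, SE 1.05, adjusted p = 0.0218). The call was lost without WT replicates 1 and 3 (0.0552 and 0.0581) or Q replicates 1 and 2 (0.0528 and 0.0704).

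Genes with the lowest p among the falls changed less and varied little. The gene uro1, a predicted uricase gene, was at 47.3, 45.8 and 50 CPM in WT and at 19.4, 19.2 and 19.5 CPM in Q (-1.3, SE 0.18, adjusted p = 0.00222). SPCC1795.12c, which has no assigned function, was at 50.8, 49.5 and 50.3 CPM in WT and 24.6, 21.5 and 24.5 CPM in Q (-1.09, SE 0.14, adjusted p = 0.00203). The gene yth1, a subunit of the complex that cleaves and polyadenylates mRNA, fell from 42.4 ± 4.22 to 20.6 ± 2.76 CPM (-1.04, adjusted p = 0.00297). A protein kinase gene, ppk25, fell from 107 ± 5.15 to 49.4 ± 9.12 CPM (-1.12, adjusted p = 0.00297). No count was recorded in any Q library for uga1, a GABA transaminase gene (7.61, 5.58 and 6.1 CPM in WT), or dut1, a predicted dUTPase gene (6.68, 5.82 and 4.56 CPM in WT). With the highest floor of a Q library, uga1 was at least 34.4-fold and dut1 at least 30.4-fold lower. Neither fall was particular to Q: uga1 was at 0 CPM in A and R, and dut1 at 0 CPM in A and 0.125 ± 0.108 CPM in R. Each overlaps another annotated gene (atg43 and pct1), so reads from the overlap cannot be assigned. Another gene, SPBP35G2.17, annotated as dubious, had no count in WT or in Q replicate 1 and was at 11.3 and 17.2 CPM in Q replicates 2 and 3 (adjusted p = 0.0831, not called).

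The 6 most abundant genes called went both ways, ssa2 of the chaperones among them. The gene pgk1, a glycolytic kinase gene, was at 9608, 9221 and 9639 CPM in WT and 7831, 5274 and 5902 CPM in Q (-0.58, adjusted p = 0.0373). Its call was lost without WT replicates 1, 2 and 3 (0.0966, 0.0703 and 0.0969) or Q replicates 2 and 3 (0.125 and 0.0859). The gene cpy1, which encodes a vacuolar protease, rose from 5743 ± 208 to 8721 ± 1545 CPM (0.6, adjusted p = 0.014), lost without WT replicate 1 (0.0562) or Q replicate 2 (0.0503). The phospholipase gene plb1 fell from 4410 ± 425 to 2169 ± 555 CPM (-1.02, adjusted p = 0.0272), lost without WT replicates 1 and 3 (0.0769 and 0.073) or Q replicates 1 and 3 (0.066 and 0.0783). Markers of stationary or starved cells also went both ways. Their summed level over 5 genes was 18738 to 20358 CPM in WT and 14478 to 17051 CPM in Q. Of these genes gpd1, a glycerol phosphate dehydrogenase gene with the highest level in WT, fell from 9512 ± 444 to 5619 ± 423 CPM (-0.76, adjusted p = 0.027). The gpd1 call was lost without WT replicates 1, 2 and 3 (0.0715, 0.0531 and 0.0771) or Q replicates 2 and 3 (0.0808 and 0.0533). The catalase gene ctt1 fell from 4064 ± 347 to 2234 ± 430.0 CPM (-0.86, adjusted p = 0.0213), lost without WT replicates 1 and 3 (0.062 and 0.0684) or Q replicate 2 (0.0785). By contrast, fbp1, a gene of glucose synthesis, rose from 83.5 ± 3.86 to 284 ± 173 CPM (1.77, adjusted p = 0.017), lost without WT replicates 1, 2 and 3 (0.0526, 0.0515 and 0.0613) or Q replicate 2 (0.0794). The heat-shock gene hsp9 was at 5379 ± 185 and 7099 ± 1233 CPM (adjusted p = 0.121), and inv1, the invertase gene, was not called (-0.53, adjusted p = 0.322).

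Both ends of chromosomes I and II held rising genes. Genes near chromosome ends are kept low by silenced chromatin in this yeast, and many belong to families with near-identical copies at other ends. Among the 30 outermost tested genes of each end, 12 (I left), 14 (I right), 13 (II left) and 14 (II right) were called higher, together 53 of 120 (44.2%, against 18.6% of all genes), and 6 were called lower (5.0%, against 15.8%). The medians were 0.62, 0.73, 0.4 and 0.81. Without WT replicates 1, 2 and 3 the numbers called higher were 9, 11 and 10 at I left, 8, 7 and 7 at I right, 12, 11 and 10 at II left and 12, 13 and 13 at II right. Without Q replicates 1, 2 and 3 they were, in the same order of ends, 12, 11 and 10, 12, 13 and 10, 13, 10 and 13, and 14, 13 and 15. Of the 120 genes, 50 have a copy elsewhere at 95% identity over 50% of their length, 19 of them at the left end of chromosome I, so their counts could hold reads of relatives.

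Within the ends the rising genes stood in unbroken runs of tested genes. On the left of chromosome I a run of 7 reached from ftm1 (51.6, 53.8 and 53.6 CPM in WT, 113, 109 and 133 CPM in Q, 1.16, adjusted p = 0.00297) to SPAC977.06. It holds SPAC977.18 and ftm2 (1.54 ± 0.388 to 40 ± 24.4 CPM, 4.69). All 7 have near-identical copies. On the right of the same chromosome 11 neighbours rose, from the sulfate transporter gene sul2 to SPAC186.07c, and of these 1 has such a copy. SPAC186.07c, a predicted hydroxyacid dehydrogenase gene, was at 6.93, 5.88 and 3.27 CPM in WT and at 53.1, 208 and 104 CPM in Q (4.49, SE 0.68, adjusted p = 0.00297). The gene pfl9, a cell-surface glycoprotein gene, was at 9.73, 11.6 and 8.8 CPM in WT and at 27.3, 32.5 and 28.1 CPM in Q (1.54, SE 0.19, adjusted p = 0.00203). Not all 11 calls were firm: sul2 (adjusted p = 0.0198), yhb1 (0.0201), SPAC869.03c (0.0152) and SPAC186.02c (0.0399) were called in 2, 2, 4 and 1 of the 6 fits without a library, with adjusted p of 0.05 to 0.212 where the call was lost. The libraries were WT replicates 1, 2 and 3 and Q replicate 3 for sul2 and yhb1, WT replicates 2 and 3 for SPAC869.03c, and all but Q replicate 3 for SPAC186.02c.

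On chromosome II a run of 6 at the left end began with ftm5, one of the 6 genes called higher with the lowest p (205, 198 and 203 CPM in WT, 424, 408 and 517 CPM in Q, 1.15, SE 0.13, adjusted p = 0.00197). All 6 have near-identical copies elsewhere. At the right end the galactose genes gal10 and gal1 opened a run of 5, and its other 3 genes have such copies. SPBPB2B2.15 of this run and SPBC1348.06c of the left one had the same values in every WT and Q library (0.133 ± 0.0674 to 1.2 ± 0.39 CPM, 3.11). The gene gal1, the galactokinase gene, was at 21.1, 20.2 and 19.6 CPM in WT and at 45.3, 56 and 36.9 CPM in Q (1.18, SE 0.18, adjusted p = 0.00297). Beside it, gal7 rose from 18.6 ± 2.98 to 40.2 ± 7.24 CPM (1.11) and gal10 from 36.6 ± 5.99 to 111 ± 50.2 CPM (1.6). The outermost genes themselves, tlh1 and tlh2, helicase genes that are almost the same in sequence, were low, with tlh2 at 1.82, 1.2 and 0 CPM in WT and 2.37, 8.9 and 2.31 CPM in Q (adjusted p = 0.0637). Outside the ends a run of 8 rising neighbours lay inside chromosome I, from hul5 to ire1, of which ptb1, a prenyltransferase subunit gene, changed most (21.4, 22.3 and 17 CPM in WT, 62.9, 103 and 78.2 CPM in Q, 2.01, SE 0.32, adjusted p = 0.00306) and overlaps snu66 (44.1 ± 7.17 to 134 ± 60.7 CPM, 1.6). In that run hul5 (adjusted p = 0.0267) and ire1 (0.0177) were called in 2 and 3 of the 6 fits without a library, with adjusted p of 0.0605 to 0.111 where the call was lost (without WT replicates 2 and 3 or Q replicate 3 for both, and without Q replicate 1 for hul5). A run of 6 neighbours called lower, from fta3 to thi20, lay inside chromosome II, with log2 fold changes of -0.81 to -0.27. Of the other repeated genes, 8 of 20 wtf meiotic drivers were higher (40%, against 18.6% of all genes) and none lower. Without WT replicates 1, 2 and 3 or Q replicate 2 the higher count was 4, 3, 3 and 3. An example is wtf9 (32.5 ± 2.13 to 66.1 ± 15.8 CPM, 1.02). Tf2-1, a retrotransposon with near-identical copies, was at 19, 17.4 and 25.6 CPM in WT and at 18.4, 14.1 and 124 CPM in Q (adjusted p = 0.136), high in Q replicate 3 alone.

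**Figure D3:**
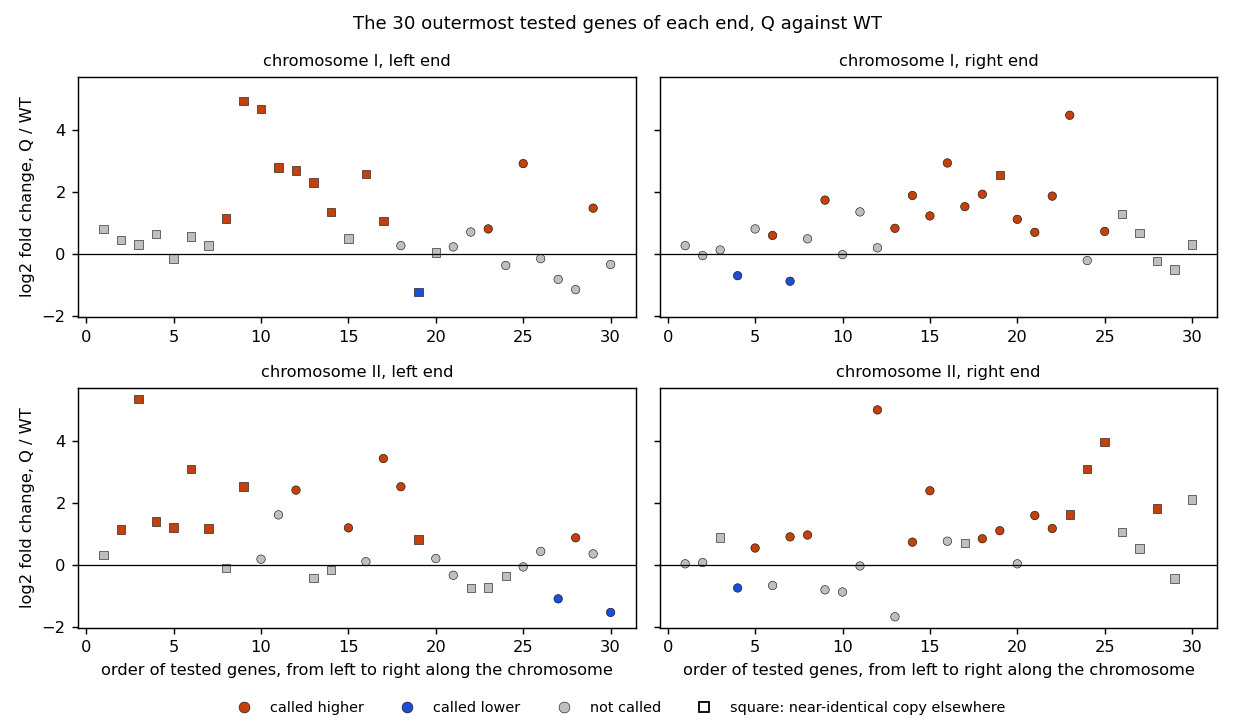
Log2 fold change of Q against WT for the 30 outermost tested genes of each end of chromosomes I and II in chromosome order (left panels start at the end, right panels finish at it), coloured by call, with squares for genes that have a near-identical copy elsewhere. Called genes lie mostly above 0 in all 4 panels, 53 higher and 6 lower.

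Genes of double-strand break repair, the process in the series title, moved in both directions and at about the rate of all genes. Of 49 tested genes 9 were called higher (18.4%, against 18.6%) and 8 lower (16.3%, against 15.8%), with a median of 0.08. Some central recombination genes, picked after their values were seen, were not called. Levels in WT and Q were, for rad54, 42.4 ± 0.189 and 40.3 ± 4.34 CPM (adjusted p = 0.633), for rad52 50.7 ± 0.703 and 40.8 ± 4.23 CPM (0.1) and for mre11 115 ± 10.8 and 109 ± 9.64 CPM (0.673). All Q libraries of rad52 lay below all WT libraries, as for 26.4% of all genes. By contrast, nbs1 (1.6, adjusted p = 0.00601) and swi5 (1.47, 0.00647) were among the 9 called higher, and nse1 (-0.73, 0.00777) among the 8 called lower. Whether nbs1, swi5 and nse1 overlap a neighbour is not given here. Among those called, rdh54, a helicase gene related to rad54, rose from 8.99, 11.2 and 9.37 CPM to 30.8, 38.4 and 34.7 CPM (1.82, SE 0.32, adjusted p = 0.00426), though it overlaps 2 annotated genes. The single-strand binding subunit gene ssb2 rose from 160.1 ± 2.94 to 272 ± 25.4 CPM (0.76, adjusted p = 0.00448). The genes rlp1 and rdl1, annotated as a RecA-family ATPase and a related protein, both fell: rlp1 from 86, 61.4 and 74.1 CPM to 25.7, 26.2 and 34.4 CPM (-1.36, SE 0.27, adjusted p = 0.00535). The fall of rdl1 was from 27.5, 24.7 and 27.7 CPM to 13, 12 and 14.1 CPM (-1.03, SE 0.18, adjusted p = 0.00413). The higher count was 8, 7, 7, 10, 9 and 8 and the lower count 5, 7, 4, 9, 4 and 10 without WT replicates 1, 2, 3 and Q replicates 1, 2, 3 in turn.

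In the DNA damage and replication checkpoint 7 of 31 genes were called higher (22.6%, against 18.6% of all genes) and 4 lower (12.9%, against 15.8%). Both shares were near those of all genes. The gene rad3, the ATR kinase gene, was at 59.3, 48.6 and 44.6 CPM in WT and 81.4, 151 and 188 CPM in Q (1.46, SE 0.29, adjusted p = 0.00535), and overlaps swi1. The gene cds1, the kinase that answers stalled replication, was at 24.6, 27.7 and 22.9 CPM in WT and 60.4, 89 and 73.9 CPM in Q (1.57, SE 0.26, adjusted p = 0.00349). Both were higher in every Q library. The gene wee1, the kinase that holds back mitosis, fell from 333, 316 and 339 CPM to 172, 215 and 188 CPM (-0.78, SE 0.19, adjusted p = 0.0113). A scaffold gene of the checkpoint, rad4, fell from 108 ± 3.31 to 72.8 ± 1.09 CPM (-0.57, SE 0.1, adjusted p = 0.00442). The gene chk1 was at 17 ± 3.77 CPM in WT and 24.9 ± 6.21 in Q (adjusted p = 0.0731). The counts of higher genes were 4, 4, 4, 10, 5 and 4 and of lower genes 2, 2, 2, 3, 2 and 4 in the 6 fits that leave out WT replicates 1, 2, 3 and Q replicates 1, 2, 3 in turn.

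Genes of chromatin regulators were called in both directions. Of 31 genes listed under histone acetyltransferase complexes 9 were called higher (29%, against 18.6% of all genes) and 8 lower (25.8%, against 15.8%). Among the higher ones is tco1 (1.41), which is annotated as an RTA1-like protein and overlaps mnr2, so the list does not hold complex subunits alone. The gene mst2, the catalytic subunit of a complex that acetylates H3, was at 74.2, 83.3 and 74.5 CPM in WT and 147, 238 and 235 CPM in Q (1.42, SE 0.17, adjusted p = 0.00197), and overlaps sec3. The gene hat1, which acetylates new H4, rose from 9.08 ± 1.68 to 18.6 ± 1.19 CPM (1.03, SE 0.21, adjusted p = 0.00548). Levels of gcn5, the catalytic subunit of SAGA, fell from 31.4 ± 1.83 to 17.5 ± 4.48 CPM (-0.84, adjusted p = 0.013). Among 27 deacetylase genes 3 were higher (11.1%, against 18.6%) and 5 lower (18.5%, against 15.8%), and pst2 rose from 39.9 ± 2.95 to 101 ± 4.56 CPM (1.34, adjusted p = 0.00306). Of 38 genes of heterochromatin and RNA interference 9 were higher (23.7%, against 18.6%) and 6 lower (15.8%, the same share as of all genes). Among them rik1, a subunit of the complex that methylates H3, rose from 22.5, 18.8 and 20.2 CPM to 50.9, 49.7 and 60.2 CPM (1.38, SE 0.31, adjusted p = 0.00833). A telomere-binding protein gene, rap1, rose from 10 ± 1.1 to 19.9 ± 4.44 CPM (0.99, adjusted p = 0.00653), while clr4, the methyltransferase gene itself, fell from 76.5 ± 3.91 to 44.2 ± 5.73 CPM (-0.79, adjusted p = 0.0116). With WT replicates 1, 2, 3 and Q replicates 1, 2, 3 left out in turn, the lower acetyltransferase genes numbered 6, 4, 5, 8, 5 and 8. The higher acetyltransferase genes numbered 8, 8, 7, 11, 9 and 8. The lower deacetylase genes numbered 1, 4, 0, 3, 2 and 4, and the higher ones 2, 3, 3, 4, 4 and 4. For heterochromatin the higher genes numbered 7, 8, 5, 12, 8 and 7 and the lower ones 1, 5, 3, 5, 3 and 10.

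In the Sty1-Atf1 stress list 8 of 32 genes were lower (25%, against 15.8% of all genes) and 3 higher (9.38%, against 18.6%). The gene sty1 was at 408 ± 4.71 and 521 ± 83.5 CPM (adjusted p = 0.0541) and atf1 at 205 ± 14.5 and 191 ± 52.5 CPM (0.715). The gene of the partner of Atf1, pcr1, fell from 415 ± 37.9 to 232 ± 33.9 CPM (-0.84, adjusted p = 0.013, lost without WT replicate 3 at 0.0507). The gene ntp1, the trehalase gene, rose from 387 ± 28.6 to 754 ± 101 CPM (0.96, adjusted p = 0.00454). In the oxidative stress list 7 of 32 were lower (21.9%, against 15.8% of all genes) and 3 higher (9.38%, against 18.6%). The gene srx1, the sulfiredoxin gene, fell from 120.0 ± 28.4 to 47.4 ± 15.9 CPM (-1.34, adjusted p = 0.00603) and trx1, a thioredoxin gene, from 462 ± 64.7 to 253 ± 33.5 CPM (-0.87, adjusted p = 0.00445). Leaving out WT replicates 1, 2, 3 and Q replicates 1, 2, 3 in turn gave 3, 4, 1, 8, 6 and 5 lower and 1, 1, 1, 3, 3 and 6 higher stress genes, so that without Q replicate 3 more were higher than lower. It gave 4, 6, 4, 10, 4 and 7 lower and 0, 0, 0, 1, 1 and 3 higher oxidative stress genes.

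Among 32 genes of nitrogen starvation and amino acid uptake 12 were lower (37.5%, against 15.8%) and 5 higher (15.6%, against 18.6%), with a median of -0.38. The higher ones include isp5, described above, and uge1, which is annotated as a UDP-glucose 4-epimerase gene. The gene car1, the arginase gene, fell from 121, 105 and 125 CPM to 62, 34.2 and 45.4 CPM (-1.31, SE 0.28, adjusted p = 0.00697). Of 11 thiamine-repressible genes 5 were lower (45.5%, against 15.8%) and none higher (against 18.6%), with a median of -0.47. Levels of pho4, the thiamine-repressible phosphatase gene, fell from 52.8, 54.6 and 57.1 CPM to 25.5, 18.8 and 26.6 CPM (-1.21, SE 0.24, adjusted p = 0.0055), and those of tnr3, a thiamine diphosphokinase gene, from 336 ± 35.3 to 194 ± 27.6 CPM (-0.79, adjusted p = 0.00602). The gene nmt1, the best known gene of this group, was at 10.1 ± 1.86 and 7.84 ± 2.34 CPM (adjusted p = 0.326). Without WT replicates 1, 2, 3 and Q replicates 1, 2, 3 in turn the nitrogen list had 8, 9, 7, 9, 9 and 10 lower genes, and the thiamine list 4, 4, 4, 5, 4 and 4.

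Genes for making ribosomes were more often called lower than higher. Of 113 genes of ribosome biogenesis 34 were called lower (30.1%, against 15.8% of all genes) and 13 higher (11.5%, against 18.6%), with a median of -0.19. Among them rix7, an ATPase of large-subunit maturation, fell from 92.1 ± 10.2 to 42.8 ± 5.91 CPM (-1.11, SE 0.19, adjusted p = 0.00417) and rpa2, a subunit of RNA polymerase I, from 604 ± 44.4 to 326 ± 35 CPM (-0.89, adjusted p = 0.00515). Of 140 ribosomal protein genes none was lower and 17 were higher (12.1%, below the 18.6% of all genes), with a median of 0.11. The 34 lower biogenesis genes were 20, 23, 19, 36, 19 and 41, and the 17 higher ribosomal protein genes 3, 8, 3, 7, 3 and 25, without WT replicates 1, 2, 3 and Q replicates 1, 2, 3 in turn. Whether the 2 lists differ was not tested.

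Genes of cell separation and the actin patch also moved. The gene eng1, a glucanase gene whose product helps dissolve the septum between daughter cells, fell from 139, 151 and 118 CPM to 42.1, 56.5 and 54.2 CPM (-1.42, SE 0.3, adjusted p = 0.0062). In the list of 26 genes 9 were lower (34.6%, against 15.8% of all genes) and 5 higher (19.2%, against 18.6%). A ring protein gene, imp2, rose from 50.7 ± 2.03 to 118 ± 30.5 CPM (1.22, adjusted p = 0.0038). Of 31 genes of endocytosis and actin patches 9 were higher (29%, against 18.6%) and 2 lower (6.45%, against 15.8%). Of these arc4, an Arp2/3 subunit gene, rose from 30.6, 39.8 and 32.1 CPM to 106, 116 and 78.8 CPM (1.55, SE 0.21, adjusted p = 0.0021) and pan1, a patch scaffold gene, from 335 ± 11.5 to 572 ± 80.2 CPM (0.77, adjusted p = 0.00372). Of 37 autophagy genes 11 were higher (29.7%, against 18.6%) and 2 lower (5.41%, against 15.8%). The higher ones include atg8, which coats the autophagosome (106, 109.9 and 116 CPM in WT, 175, 192 and 156 CPM in Q, 0.65, adjusted p = 0.00504). With WT replicates 1, 2, 3 and Q replicates 1, 2, 3 left out in turn, 5, 5, 6, 5, 7 and 10 separation genes were lower, 4, 7, 5, 13, 5 and 8 patch genes higher and 4, 3, 3, 8, 6 and 6 autophagy genes higher.

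**Figure D4:**
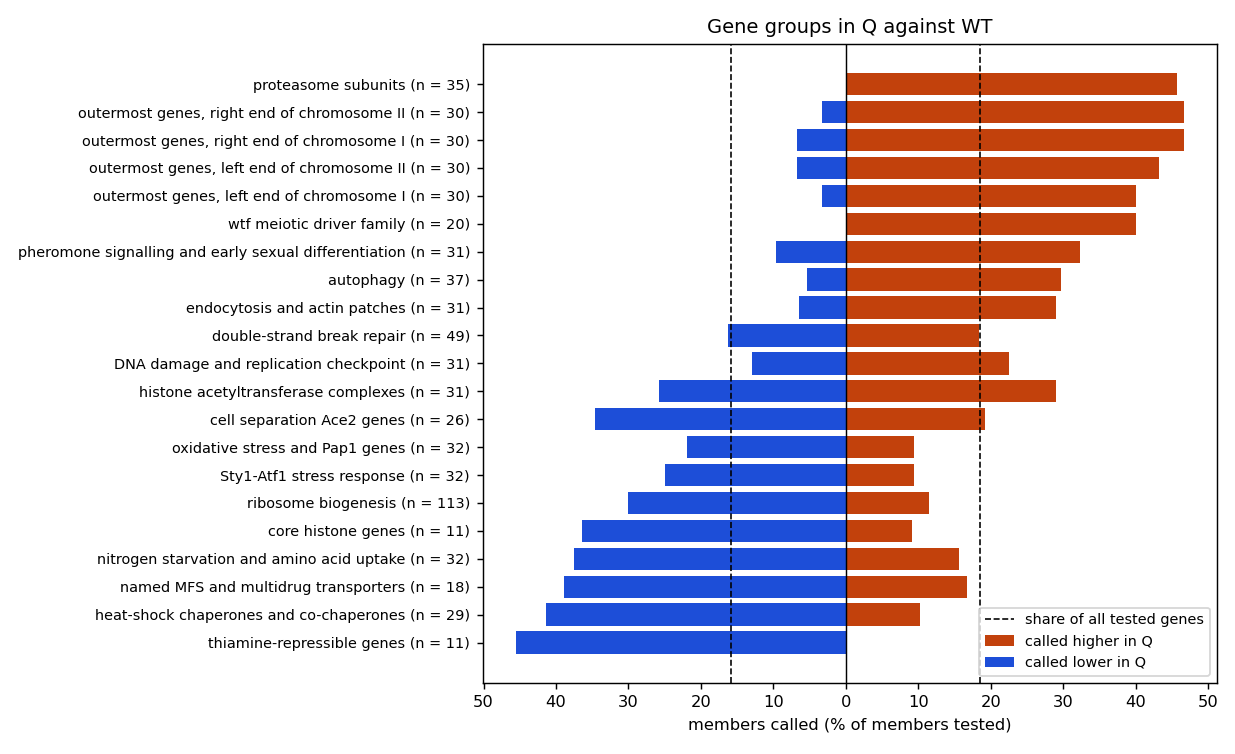
Share of the tested members of 21 gene groups called higher (right) or lower (left) in Q against WT, in percent, with dashed lines at the share of all tested genes (18.6% higher, 15.8% lower). The proteasome genes (45.7% higher, none lower) and the chaperone genes (41.4% lower, 10.3% higher) lie on opposite sides, and the double-strand break repair genes (18.4% and 16.3%) lie at the lines.

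The levels in Q were also compared with those in the other H2B mutants. All 4 groups entered the same fit, so the WT libraries enter the estimate of the spread in the tests of Q against A and R, though not the differences. Against R, 183 of 5024 genes were called (3.64%), 104 higher (2.07%) and 79 lower (1.57%). Of the genes called in Q against WT, 90 were called in the same direction against R (1.79% of all genes), 50 higher and 40 lower, and 8 in the opposite one. Of the 50 higher genes 25 were among the 120 at chromosome ends, and of the 40 lower genes none was. Against A, 2 genes were called (0.0398%), both lower in Q and both lower than in WT: htb1 and SPAC11D3.09. In that contrast 926 genes had an unadjusted p below 0.05 and DESeq2 called 115. The gene htb1 alone was called in the same direction against WT, A and R (0.0199%). The number called against R moved with the libraries and the fit: it was 88, 208 and 91 without Q replicates 1, 2 and 3, and 61, 462 and 51 without R replicates 1, 2 and 3. It was 42 in the 6 libraries of Q and R alone and 344 with DESeq2. Against A it was 184, 1 and 1 without Q replicates 1, 2 and 3 and 2, 183 and 2 without A replicates 1, 2 and 3.

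htb1 was lowest in Q and highest in A: its levels were 16540, 9921 and 5929 CPM in the A libraries and 5621, 5485 and 5953 CPM in the R libraries, all above the 1134 to 1281 CPM of Q (log2 difference -3.17, adjusted p = 6.12e-04 against A, and -2.24, adjusted p = 0.00107 against R). The gene hta1 was lower in Q than in R (425 ± 62.7 CPM in R, -0.87, adjusted p = 0.0162) and not called against A (318 ± 74.3 CPM, adjusted p = 0.225). The gene cdh1 (SPBC336.02), a predicted rRNA dimethylase gene, was at 62.5, 64.5 and 64.7 CPM in WT, 31.8, 22.1 and 23.4 CPM in Q and 63.7, 41.4 and 67.5 CPM in R (Q against R -1.16, adjusted p = 0.00798). The gene ght2 was at 817, 327 and 846 CPM in R, above its 167 to 200.1 CPM in Q (-1.82, adjusted p = 0.0274), and bdf2 at 668, 437 and 729 CPM, above its 331 to 358 CPM (-0.83, adjusted p = 0.019). In both genes the lowest R library was replicate 2, and it was still above every Q library. In A, cdh1 was at 43.8 ± 4.39, ght2 at 475 ± 286 and bdf2 at 472 ± 50.5 CPM. Q was not called against A for any of them (adjusted p = 0.191, 0.197 and 0.22).

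At the chromosome ends 43 of the 120 genes were called higher in Q than in R, against 2.07% of all genes, and none lower. The gene ftm5 was at 89.7, 113 and 97.2 CPM in R, below the 198 to 205 CPM of WT, and at 408 to 517 CPM in Q (Q against R 2.17, adjusted p = 1.01e-06). In A it was at 379, 432 and 356 CPM, also above WT, and Q was not called against A (0.21, adjusted p = 0.372). Its high level was therefore not particular to Q. Q was not called against A for pfl9 or gal1 either (22.6 ± 2.99 and 43.4 ± 1.77 CPM in A, adjusted p = 0.302 and 0.82). SPAC186.06, of the run at the right end of chromosome I, was at 1.82, 3.96 and 5.14 CPM in WT, 10.2, 17.5 and 12.3 CPM in Q and at most 0.119 CPM in R, under the floor of 3 counts (adjusted p = 1.69e-05). Its neighbours were also nearly without counts in R and not in WT or A: gdt1 was at 22.7 CPM in WT, 37.2 in Q, 42.8 in A and 0.123 in R, and SPAC186.04c at 16.4, 36, 34.7 and 0.246 CPM. In these genes R was far below WT, so the difference between Q and R is larger than that between Q and WT. For ste11 and ste4 the tests between Q and the other mutants missed the threshold, also against R with the replicate number as a block (adjusted p = 0.111 and 0.281). The gene ste11 was at 95.4 ± 24.9 CPM in A and 238 ± 38.9 in R (Q minus A 0.69, adjusted p = 0.271, and Q minus R -0.63, adjusted p = 0.3), and ste4 at 32.6 ± 3.41 and 37.1 ± 7.43 CPM (0.44, adjusted p = 0.233, and 0.25, adjusted p = 0.434). Of the chaperone genes, hsp90 was at 3165, 2808 and 3618 CPM in A, all above Q (-1.09, adjusted p = 0.076), and ssa2 at 7511, 5393 and 9010 CPM (-1.75, adjusted p = 0.076). In R hsp90 was at 2069, 1405 and 2326 CPM, a range that overlaps that of Q (-0.36, adjusted p = 0.292, and 0.199 with the block), with Q below R in each same-numbered pair. The ssa2 gene was at 4675, 2421 and 4597 CPM in R, also above Q in each same-numbered pair, and here the block changed the call (-0.84, adjusted p = 0.159 without the block and 0.023 with it). The labels do not give the numbers as pairs, and whether they are was not tested.

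**Figure D5:**
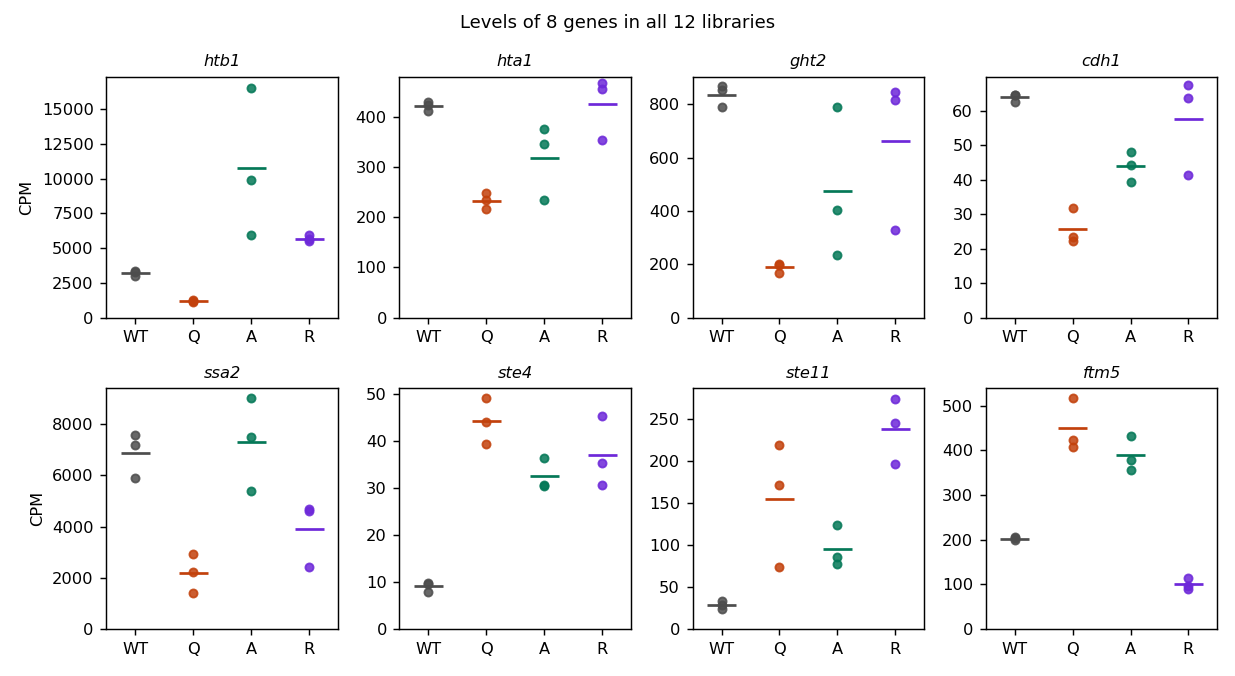
CPM of 8 genes in all 12 libraries, 3 each of WT, Q, A and R, with a line at each group mean and axes that start at 0. The gene htb1 is lowest in Q (1134 to 1281 CPM). The gene ftm5 is high in Q (408 to 517 CPM) and in A (356 to 432 CPM) and low in R (89.7 to 113 CPM). The Q libraries of ste4 (39.4 to 49.2 CPM) overlap those of R (30.7 to 45.3 CPM).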

How the data were processed

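Polyadenylated RNA of whole cells was sequenced, 3 libraries for each of 4 genotypes. The counts per gene are raw, as deposited by the authors, and the FPKM values (fragments per length and depth) come from the same deposited tables. The authors' deposited table of Q against WT gives a log2 ratio with a p-value and FDR per gene. The submitters' processing notes name fastp, HISAT2, Bowtie2, StringTie, RSEM and DESeq2 without versions or roles. For the genome build, the annotation and the strand setting the sources used here give nothing.

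Groups came from the sample titles. Counts of all 12 libraries were fitted together with edgeR 4.0.16 (R 4.3.3), TMM factors, filterByExpr (5024 genes kept, 136 left out) and the quasi-likelihood test with group as the only term. P-values were adjusted by Benjamini-Hochberg over all tested genes, and an adjusted p below 0.05 made a call. Alternatives were DESeq2 1.42.0, limma 3.58.1 on log2(FPKM + 1) and log2(FPKM + 0.1), RLE size factors, no filter, the 6 libraries of a contrast alone, the replicate number as a block, and each library left out. On simulated counts for Q against WT with 200 of 5024 genes changed, 76% of 2-fold and 98% of 4-fold changes were called, with 8 false calls. The simulation gave Q and WT libraries the same spread for each gene. In the data the spread was wider in Q (median SD of log2 CPM 0.22, against 0.0895 in WT), and 1731 genes were called. These rates therefore need not hold for the real counts. Library totals run from 15329416 to 20050394 counts over WT and Q.

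Deviations of same-numbered Q and R libraries correlated at 0.32, 0.4 and 0.29. These correlations are not independent, because the deviations of a group sum to 0. The sample titles number the replicates without calling them pairs, and the main test of Q against R used no pairing. A block by replicate number was fitted as an alternative, and whether the numbers mark pairs was not tested. Of 5160 gene IDs, 5111 matched the RefSeq annotation (ASM294v3), which gave overlaps, neighbours and upstream sequence. Copies were found with BLAST 2.17.0 at 95% identity over 50% of the length.

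Genes named are htb1, the largest changes, lowest p and most abundant among calls, and the lowest p within gene lists. Levels had to reach 20 CPM in the higher group for the ranked sets. Other genes, called or not (gnr1, scd2, gcn5, clr4, spk1, byr1, inv1, rad52, rad54 and hsf1 among them), were chosen after their values were seen. The comparison and the gene lists were chosen with earlier results of these data known. The lists place the receptor genes mam2 and map3 beside the pheromone they bind, and the text groups them by the cell type that makes them. For some genes the values are left out and not reported here.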

Additional observations from a re-analysis of the deposited data

How the results depend on the processing

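For Q against WT the number of genes called stayed within 1.5 times of 1731 with DESeq2 (1970), the replicate block (1983), RLE factors (1744), no filter (1722), the 6 libraries alone (1850) and limma (1641 to 1666), and ranged from 841 to 1681 with 1 library left out. For Q against A, 2 genes were called, and DESeq2 called 115, the replicate block 96, the 6 libraries alone 0, limma 1 on log2(FPKM + 1), 1 on log2(FPKM + 0.1) and 1 with no filter, with 1 to 184 when a library was left out. For Q against R, 183 genes were called, and DESeq2 called 344, the replicate block 207, the 6 libraries alone 42, and the fits without a library 51 to 462. The share of calls that were higher in Q than in R was 56.8% in edgeR and 76.8 to 77.2% in limma. The cause was not tested.

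Of 237 named genes called, DESeq2 kept 237, limma 234, the block 236 and the fits without 1 library 194 to 223, and none changed direction in any of these fits. Of 13 genes compared between Q and R by name, the block changed the call of 1, ssa2. The replicate numbers gave no sign of pairing Q with WT (correlations -0.08, 0.08 and -0.03), and for Q against A they were -0.18, 0.2 and 0.13. Among the limits are the wider spread of the Q libraries, genes that overlap or have copies, and 3 libraries a group.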
